A study of Mus musculus with 23 samples.

Results

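K27M-AP tumours were compared with K27M-AP preneoplastic cells, which share their engineered genotype. The comparison holds 7 of the 23 mouse libraries of the study, 3 from tumours (K27M-AP T 1, 2 and 4) and 4 from preneoplastic cells (K27M-AP 1 to 4), picked by sample title with no use of a measured value. Both groups are C57BL/6 brain cells with H3.3K27M O/E (forced expression of a mutant histone H3.3), Trp53-/- (loss of the gene for p53, by CRISPR/Cas9) and an Atrx shRNA (a hairpin against the H3.3 chaperone ATRX), without added Pdgfra. The constructs entered progenitors of the embryonic cortex by in utero electroporation on a piggyBac transposon, which passes them on to all daughter cells. Per the design text, cells carrying GFP were sorted and then expanded, preneoplastic cells at 72 h and tumour cells at 5 to 9 months after electroporation. The extraction text names cell pellets and tumours without assigning libraries to either. A background with Pdgfra O/E added, K27M-APP (2 preneoplastic libraries) and K27M-APP T (4 tumour libraries), entered the same statistical fit and served to ask whether a tumour change differed between backgrounds. All 13 libraries carry the mutant histone, the Trp53 loss and the Atrx hairpin, so the effect of none of these is measured here, and time, growth in the brain and tumour formation cannot be told apart. Whether the libraries within a group are different animals or cultures is not labelled. The p-values therefore rest on the spread among these libraries alone, part of which may be technical.

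Histone H3.3 with this lysine-to-methionine change occurs in midline gliomas of children, where it inhibits the polycomb methyltransferase EZH2 and removes much of the repressive trimethyl mark on histone H3. Developmental transcription factors are among the genes that this mark keeps silent. Interferon response genes are controlled by a separate route: interferons bind receptors on the cell surface, the kinases there activate transcription factors, STAT2 and its partners, and these act with IRF9 on a promoter element that switches on antiviral and antigen presentation genes.

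The 7 libraries held 42213773 to 54100690 counts each. Levels are given as CPM, the usual depth-normalised count, here on library totals scaled by TMM (which corrects for a few genes taking up many reads), and a log2 difference is tumour minus preneoplastic. Pdgfra stood at 75.4, 410 and 287 CPM in tumours 1, 2 and 4 and at 182, 322, 153 and 219 in K27M-AP 1 to 4, with overlapping groups. Trp53, the targeted gene, stood at 11.2, 9.85 and 48.8 CPM in the tumours and 13.6 to 16.6 in the preneoplastic cells, so tumour library 4 stands apart from the other 6. Cdkn1a, a p53 target that blocks cyclin-dependent kinases, was also highest in tumour library 4, at 18.02 CPM against 8.67 and 4.70 in the other tumours and 1.85 to 4.00 in the preneoplastic cells. The p53 target list as a whole did not move. Of 27 tested, 0 were called and 13 had a positive log2 difference (median -0.06). In 1 (3.7%) every tumour lay above every preneoplastic library, against 5.41% of all genes. Their summed level in tumour library 4 was 1148 CPM, inside the preneoplastic range of 911.6 to 1273. RNA of a frameshifted gene can still be counted, and the counts do not separate edited from unedited transcripts. Atrx, the hairpin's target, stood at 56.3, 125 and 45.3 CPM in the tumours and 109 to 164 in the preneoplastic cells, a log2 difference of -0.79 ± 0.338 (SE) that was not called (adjusted p = 0.382, edgeR quasi-likelihood test with Benjamini-Hochberg adjustment). The genes for H3.3 overlapped between the groups, H3f3a at 190.4 to 301 CPM in the tumours and 238 to 290.2 in the preneoplastic cells, H3f3b at 538, 582 and 1235 against 537 to 702.

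A preneoplastic library, K27M-AP 4, also stands apart, with a Pearson correlation of log2 CPM of 0.774 to 0.869 with the other 3, against 0.883 to 0.981 among those. Its sum over 29 proliferation genes was 391.6 CPM, against 4378 to 6685 in K27M-AP 1 to 3 and 4661 to 6106 in the tumours. Neural stem and progenitor markers summed to 7294 to 14550 CPM in the other 6 libraries and to 5117 in K27M-AP 4, where astrocyte markers summed to more (6320) and mature oligodendrocyte markers to 2124. Sox2, a stem cell transcription factor, stood at 207 to 422 in all 7. Mitochondrially encoded genes, a measure of RNA quality and content, were lower by value in the tumours. Of 13, 0 had a positive log2 difference, and the median was -0.73. In 4 (30.8%) every tumour lay below every preneoplastic library, against 4.5% of all genes. The summed mitochondrial level overlapped, at 9974, 5103 and 8644 CPM in tumours 1, 2 and 4 against 8788 to 12770, with tumour 1 inside that range. Each preneoplastic library held both Xist (75.0 to 187 CPM), the RNA of the inactive X chromosome, and the Y-linked Ddx3y (18.8 to 60.6). The tumours did not: tumour 1 had Xist at 169 and Ddx3y at 0, and tumours 2 and 4 had Xist at 0 and Ddx3y at 52.8 and 3.95.

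Across 20373 genes tested, 5 rose in the tumours and 0 fell, 0.0245% of the genes. They were Samd9l, Ifi27, Lgi1, Nol3 and Lgals9, and in each the 3 tumour libraries lay above all 4 preneoplastic ones. At an unadjusted p below 0.05 there were 2486 genes. Without any threshold on p, 1102 genes (5.41%) had all tumour libraries above all preneoplastic libraries and 917 (4.5%) had them all below.

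Samd9l (chr6:3372257-3399572, minus strand, GRCm38) encodes an antiviral protein that restrains translation and is induced by interferon. It stood at 23.6, 67.3 and 50.9 CPM in tumours 1, 2 and 4 and at 3.11, 6.49, 5.04 and 2.68 in K27M-AP 1 to 4. The lowest tumour was thus well above the highest preneoplastic library, and the log2 difference was 3.45 ± 0.394 (SE, adjusted p = 0.0262, the edgeR test). Ifi27 (chr12:103434211-103440239, plus strand), an interferon-induced protein of mitochondria and nuclear membrane, stood at 110.5, 462 and 272 CPM in the tumours and at 11.6, 21.2, 30.4 and 27.2 before tumour formation. It rose by 3.64 ± 0.469 on the log2 scale (adjusted p = 0.0443 in the edgeR test), with tumour 1 lowest among the tumours, as it was for Samd9l. Ifi27l2a belongs to the same gene family, and the sources used here do not say how reads matching several genes were counted.

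Lgals9 (chr11:78962974-78984946, minus strand) encodes galectin-9, a secreted sugar-binding protein that acts on immune cells. Its level was 5.57, 21.6 and 144 CPM in tumours 1, 2 and 4, against 0.296, 0.781, 0.831 and 0.518. The groups were apart, but the tumours spanned a wide range and tumour 4 carried most of the mean. The log2 rise was 6.56 ± 0.921 (adjusted p = 0.0443, edgeR) and 4.48 without tumour 4, where the gene was no longer called (adjusted p = 0.069).

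Nol3 (chr8:105276140-105281939, plus strand) encodes ARC, an inhibitor of cell death through its caspase recruitment domain. It had the tightest groups of the 5, at 23.7, 19.4 and 30.5 CPM in the tumours and 4.85, 5.86, 5.14 and 6.80 in the preneoplastic cells, a log2 rise of 2.11 ± 0.292 (adjusted p = 0.0443, edgeR). Lgi1 (chr19:38264536-38312214, plus strand) encodes a secreted neuronal protein that binds ADAM receptors at synapses and is mutated in an inherited epilepsy. Its level was low throughout, 0.820, 2.02 and 1.14 CPM against 0.148, 0.146, 0.116 and 0.0864, and the log2 rise was 3.39 ± 0.460 (adjusted p = 0.0443, edgeR). Lgi1 is below the level set for naming and is given because the called genes are so few. Antisense gene models (4931428F04Rik and Gm42723) overlap parts of Nol3 and Lgi1 in GENCODE M21, and the strand setting of the counting is not given in the sources used here.

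**Figure D1:**
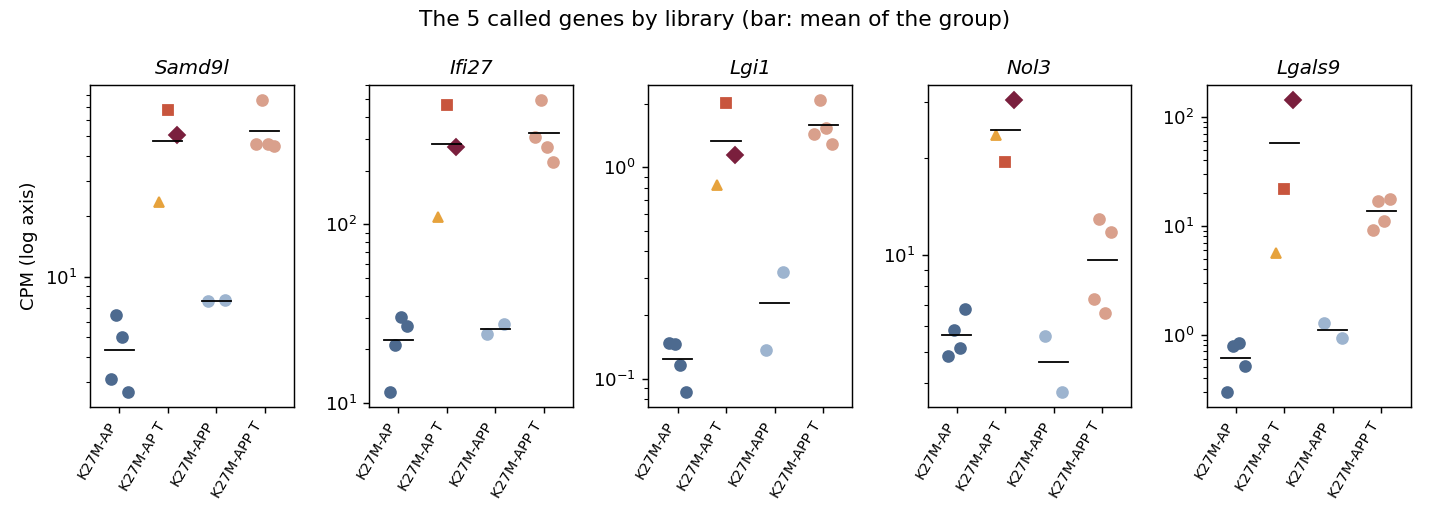
CPM of Samd9l, Ifi27, Lgi1, Nol3 and Lgals9 on log axes in K27M-AP (4 libraries), K27M-AP T (triangle, library 1; square, library 2; diamond, library 4), K27M-APP (2) and K27M-APP T (4), with a bar at each group's mean. In all 5 genes the K27M-AP tumour libraries sit above the 4 preneoplastic ones, and Lgals9 ranges from 5.57 to 144 CPM among the tumours.

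The call of these 5 genes rests on small groups. Without K27M-AP 1, 3 or 4, or without tumour 4, 0 genes were called, and without K27M-AP 2 there was 1. Without tumour 1 there were 33 and without tumour 2 there were 54. The log2 difference of every one of the 5 stayed positive in all 18 alternative settings, from 1.93 for Nol3 to 7.75 for Lgals9. Their adjusted p ranged up to 0.569 for Samd9l, 0.480 for Ifi27 and Lgals9, 0.701 for Lgi1 and 0.728 for Nol3. Libraries first deposited in the earlier table (K27M-AP 1 and 2, tumours 1 and 2) and those first in the later table (K27M-AP 3 and 4, tumour 4) gave 0 called genes each, with all 5 log2 differences positive in both. DESeq2 called 578 genes on the same libraries, 430 up and 148 down, the 5 among them.

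Interferon response genes as a group lay higher in the tumours. Of the 20 listed, all 20 were tested and 0 were called, yet all 20 log2 differences were positive with a median of 3.07, against -0.0012 over all genes tested. In 9 of them (45%) the tumour libraries lay above every preneoplastic one, against 5.41% of all genes. Their summed level was 258.8, 1135 and 1229 CPM in tumours 1, 2 and 4, and 119 to 212 in K27M-AP 1 to 4. The groups did not overlap, and tumours 2 and 4 were far above tumour 1, which exceeded the highest preneoplastic library only slightly. DESeq2 called 15 of the 20, and 578 genes in all. The median was 2.34 within the earlier table and 3.56 within the later one. Without tumour 1, edgeR called 9 of the 20, and 33 genes in all. In that setting 17 of the 20 (85%) had no overlap, against 8.22% of all genes. The lower mitochondrial values described above moved between the same groups, and their part in this result was not tested. 

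Among the signalling factors, Stat2 stood at 22.03, 39.0 and 52.3 in tumours 1, 2 and 4 against 15.8 to 22 CPM, so that tumour 1 was level with the highest preneoplastic library. Irf9, which gives the complex its binding site on DNA, stood at 12, 75.3 and 95.1 CPM against 10.8 to 21.9, and Irf7, which amplifies the response, at 2.74, 13.8 and 38.0 against 1.47 to 3.44. For Irf9 and Irf7, tumour 1 was within the preneoplastic range.

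Sensors of foreign RNA in the cytoplasm were also on the list. Ddx58 (RIG-I) stood at 24.9, 97.9 and 91.8 CPM against 11.7 to 27.3, with tumour 1 inside that range. Ifih1 (MDA5) stood at 21.6, 58.2 and 65.9 CPM against 5.72, 13.1, 6.86 and 2.89, with no overlap. The members below were singled out after their values were seen. Isg15, a ubiquitin-like modifier, stood at 5.14, 28.7 and 47.5 CPM against 1.29, 2.10, 1.82 and 1.47 (log2 difference 4.02, adjusted p = 0.0606, edgeR). Every tumour was above every preneoplastic library, tumour 1 by the least. Bst2, or tetherin, which holds budding viruses at the cell surface, stood at 32.5, 25.4 and 128 CPM against 4.42, 9.07, 4.44 and 2.38. Rsad2, or viperin, an enzyme that makes a chain-terminating nucleotide, stood at 38.0, 61.0 and 59.5 against 5.87, 13.7, 8.50 and 1.88. Neither gene overlapped between the groups, and for Bst2 tumour 2 was the lowest tumour. Usp18, which removes ISG15 and damps the pathway, stood at 8.37 in tumour 1, next to 8.32 in K27M-AP 2, and at 86.3 and 79.3 in tumours 2 and 4.

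Transcripts of the interferons themselves were near 0. Of 19 interferon genes in the table (chosen after the list's values were seen), 7 had a count in any of the 7 libraries and the highest count was 2. The receptor gene Ifnar1 stood at 76.4 to 99.4 CPM in the tumours and 74.9 to 105 in the preneoplastic cells.

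Promoter sequence was read for these genes because interferon response genes share a known element. RefSeq windows (GRCm38.p6) covering the 250 bases before the annotated start were searched on both strands for GAAA, any 2 bases and GAAA again (TTTC, any 2 bases and TTTC on the other strand), the core of the interferon-stimulated response element. Overlapping matches were allowed. The element was present in 978 of all 32851 windows (2.98%). Counted by gene, in any of its windows, it was present in 364 of the 11831 tested genes with a window (3.1%). By the same count it was in 7 of the 15 interferon response genes with a window (46.7%) and in 1 of the 8 MHC class I genes with one, B2m. Among the called genes, a window was found for Lgals9, Samd9l and Lgi1. The match in Lgals9 lies 55 to 46 bases before the RefSeq start. For Lgals9 and Lgi1 that start lies inside the gene coordinates given above, which are those of GENCODE M21. The last 150 bases before the start follow, with matches in capitals, for 4 members of the list, for B2m and for the called genes Lgals9 and Samd9l. A match is a run of letters and not evidence that a factor binds, and its absence in Samd9l says only that these letters are not in the 250 bases read.
Isg15, chr4:156200819-156200968, minus strand: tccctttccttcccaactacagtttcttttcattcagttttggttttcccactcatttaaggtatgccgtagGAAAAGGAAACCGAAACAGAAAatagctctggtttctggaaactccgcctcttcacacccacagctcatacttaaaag
Bst2, chr8:71537473-71537622, minus strand: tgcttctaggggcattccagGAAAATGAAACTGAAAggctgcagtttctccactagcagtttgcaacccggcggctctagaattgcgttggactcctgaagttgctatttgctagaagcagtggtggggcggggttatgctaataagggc
Ifit1, chr19:34640739-34640888, plus strand: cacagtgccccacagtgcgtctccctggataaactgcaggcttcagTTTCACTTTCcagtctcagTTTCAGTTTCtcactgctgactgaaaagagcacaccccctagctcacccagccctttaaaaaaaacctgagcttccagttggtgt
Rsad2, chr12:26456453-26456602, minus strand: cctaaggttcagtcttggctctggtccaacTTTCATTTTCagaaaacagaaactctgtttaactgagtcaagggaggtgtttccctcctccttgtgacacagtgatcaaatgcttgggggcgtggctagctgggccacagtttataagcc
B2m, chr2:122147537-122147686, plus strand: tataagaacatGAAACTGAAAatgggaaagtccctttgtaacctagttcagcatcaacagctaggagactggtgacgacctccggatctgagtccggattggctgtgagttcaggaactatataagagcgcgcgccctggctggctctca
Lgals9, chr11:78984925-78985074, minus strand: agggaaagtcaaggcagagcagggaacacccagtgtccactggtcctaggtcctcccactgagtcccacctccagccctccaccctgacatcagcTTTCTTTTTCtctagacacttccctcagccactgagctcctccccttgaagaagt
Samd9l, chr6:3399572-3399721, minus strand: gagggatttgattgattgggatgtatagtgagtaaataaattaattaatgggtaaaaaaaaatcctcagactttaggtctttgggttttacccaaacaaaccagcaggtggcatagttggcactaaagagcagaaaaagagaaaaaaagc

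In this set, Isg15 has 3 overlapping copies, between 78 and 57 bases before the start, and Bst2 has 2, between 130 and 115. Ifit1 has 2 copies read on the other strand, 104 to 95 and 85 to 76 bases before the start, while Rsad2, B2m and Lgals9 have 1 each. The genes with copies of the element include both Isg15, where tumour 1 was much the lowest tumour, and Bst2, where it was not.

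MHC class I genes, which display peptides from inside the cell to T cells, lay higher in the tumours too. Of 10 tested, 0 were called and 10 had a positive log2 difference (median 2.03). In 7 (70%) every tumour was above every preneoplastic library, against 5.41% of all genes. The summed level was 438.5, 561 and 1216 CPM in tumours 1, 2 and 4 and 177 to 283 in the preneoplastic cells. B2m, the light chain common to all class I molecules, stood at 155, 211 and 445 CPM against 71.5, 104, 87.2 and 62.1. H2-D1, a classical heavy chain, stood at 109, 124 and 268 against 16.6, 38.6, 14.8 and 27.9 (log2 difference 2.77, adjusted p = 0.0869, edgeR). In both genes the 3 tumours were above all preneoplastic libraries, with tumour 4 highest. H2-D1 and H2-K1 are near-identical in sequence, so the split of reads between them is uncertain.

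The processing machinery went the same way by value. Psmb8, a catalytic subunit of the immunoproteasome, stood at 6.30, 14.6 and 67.6 CPM against 1.26, 2.93, 0.657 and 0.993, and its neighbour Psmb9 at 6.08, 5.80 and 19.7 against 0.555 to 2.34. Tap1, a subunit of the peptide transporter, stood at 17.97, 29.3 and 58.1 against 4.54 to 14.6, whereas Tapbp, which holds the class I molecule at the transporter, overlapped (28.0, 48.0 and 79.6 against 25.2 to 64.9). Nlrc5, the transcriptional activator of class I genes, stood at 4.83, 9.66 and 17.9 against 0.541 to 3.52. Class II genes, which professional antigen-presenting cells use, were also higher by value at a low level, with a sum of 11.1 to 13.8 CPM in the tumours and 3.27 to 10.03 in the preneoplastic cells. Of 5 tested, 0 were called, 4 were positive and 2 (40%) had no overlap, against 5.41% of all genes. They were H2-DMa at 5.33, 7.29 and 6.48 CPM against 2.11 to 4.25 and H2-DMb1 at 0.691, 0.490 and 1.70 against at most 0.0976. H2-DMb1 was too low in the preneoplastic libraries to pass the filter there, so the count describes the members that passed. Ciita, the activator of class II genes, overlapped, under 1 CPM in all 7 libraries.

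**Figure D2:**
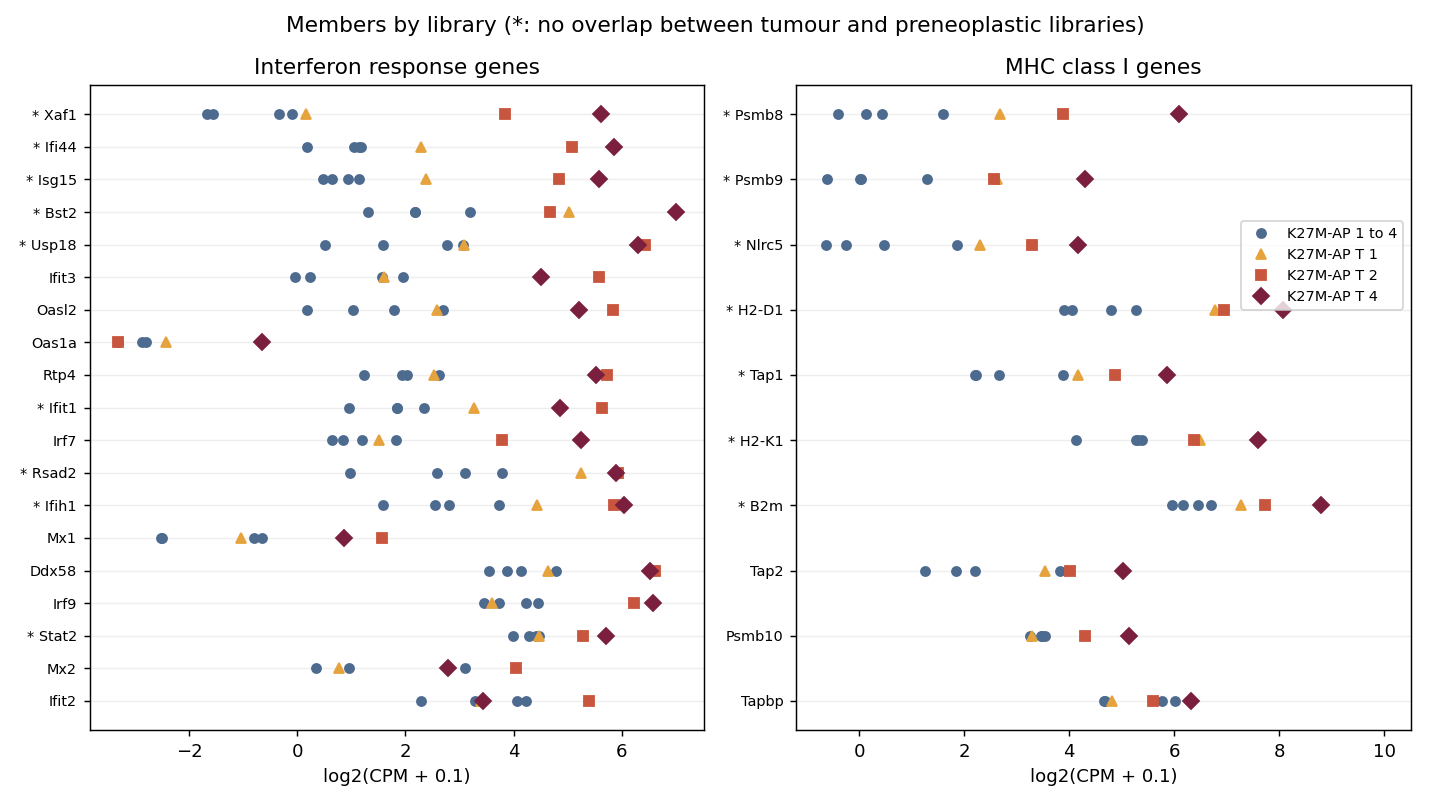
log2(CPM + 0.1) of 19 interferon response genes and the 10 MHC class I genes in each library, ordered by fitted log2 difference, with circles for K27M-AP 1 to 4 and a triangle, square and diamond for tumours 1, 2 and 4. An asterisk marks the 9 and 7 genes without overlap, and the triangle of tumour 1 lies nearest to the circles in most interferon genes.

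Markers of other cell types moved with these genes in part. Of 22 microglia and macrophage markers 10 passed the filter on low counts, 0 were called, 6 were positive (median 0.31) and 3 (30%) had every tumour above every preneoplastic library, against 5.41% of all genes. These were Lyz2 (0.0432, 0.0817 and 0.7197 CPM against 0 in all 4), Mrc1 (0.245 to 0.432 against at most 0.0488) and Fcgr3 (0.279 to 0.572 against at most 0.111). All 3 were too low in the preneoplastic libraries to pass the filter there. The count thus describes the members that passed and not the list. DESeq2 called 3 members of the list up, of 430 genes up in all. The summed level of the 22 overlapped, at 40.3 to 48.5 CPM in the tumours and 34.99 to 65.2 in the preneoplastic cells. C1qa, C1qb, C1qc, Trem2 and Tyrobp had no counts in any of the 7 libraries, and Cx3cr1, Ptprc and Itgam were under 0.2 CPM.

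The 12 lymphocyte markers summed to 0.885 to 1.30 CPM in the tumours and 0.244 to 0.599 in the preneoplastic cells, without overlap, and the only member tested, Lck, was higher in every tumour (0.518 to 1.05 against 0.173 to 0.464). Of 13 endothelial and pericyte markers tested, 0 were called and 8 were positive (median 0.69). In 4 (30.8%) every tumour was higher and in 1 (7.69%) lower, against 5.41% and 4.5% of all genes. DESeq2 called 4 up and 1 down, of 430 up and 148 down in all. Kdr, a VEGF receptor, stood at 16.0, 12.98 and 9.87 CPM against 3.97 to 4.52, and Pecam1, an endothelial adhesion protein, at 0.879 to 1.81 against 0.129 to 0.425. The others higher were Tie1 and Abcc9, while Cdh5 and Cldn5 were under 0.1 CPM. The endothelial sum was 21.0 to 31.1 CPM in the tumours, 8.61 to 13.7 in K27M-AP 1 to 3 and 89.4 in K27M-AP 4. The part of these cell types in the interferon, class I and class II values was not tested. In these bulk libraries fewer cells of a type and less RNA per cell cannot be told apart.

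**Figure D3:**
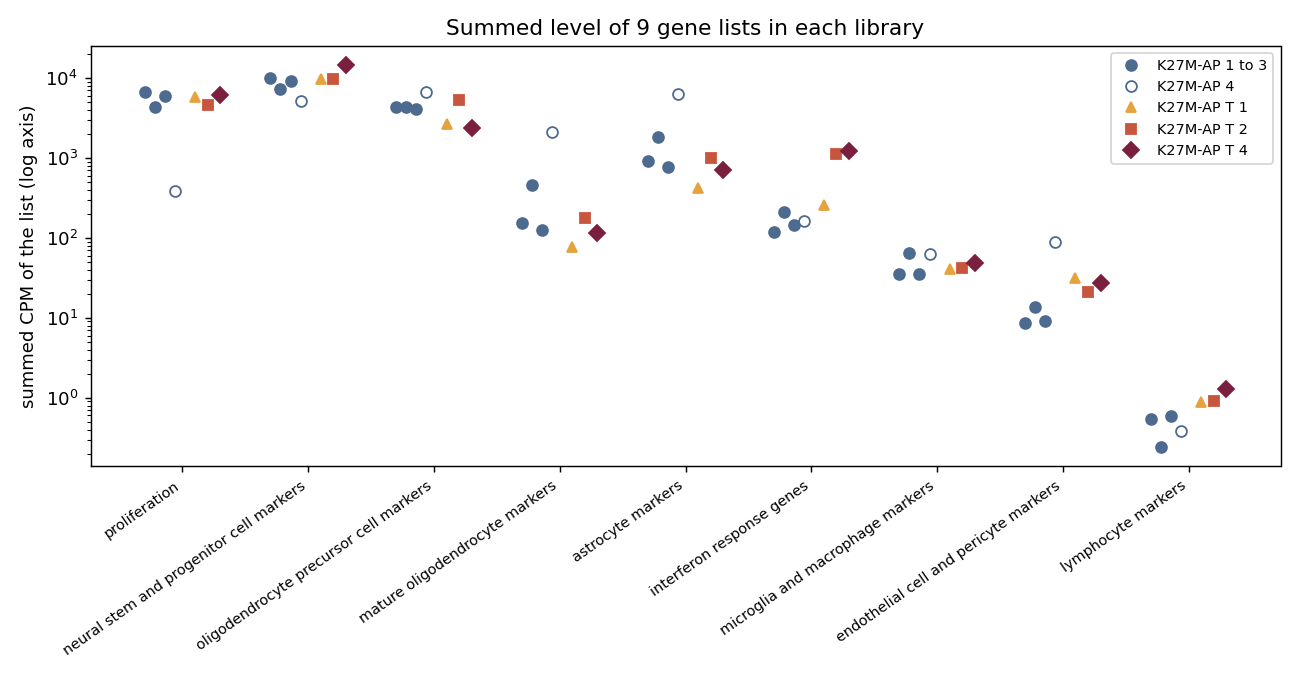
Summed CPM on a log axis of 9 gene lists in each library, with circles for the preneoplastic libraries (open for K27M-AP 4) and a triangle, square and diamond for tumours 1, 2 and 4. The interferon list separates the tumours (259 to 1229) from the preneoplastic cells (119 to 212), while K27M-AP 4 lies apart from K27M-AP 1 to 3 in proliferation, oligodendrocyte and astrocyte lists.

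Glial differentiation markers had mostly negative log2 differences, but K27M-AP 4 carried much of that. Of 16 astrocyte markers tested 0 were called, 2 were positive and the median was -1.72, or -0.68 without K27M-AP 4. Apoe, the main lipid carrier of astrocytes, stood at 27.1, 216 and 60.04 CPM in the tumours and at 35.8, 716, 44.6 and 2877 in K27M-AP 1 to 4, so the groups overlap. Aldoc, the brain aldolase, did not overlap, at 97.9, 136 and 146 CPM against 235, 309, 206 and 683. Gja1 (connexin 43) stood at 26.6 to 34.2 in the tumours and 36.5 to 314 before, and Aqp4, the astrocyte water channel, at 1.77 to 4.13 against 4.27 to 198. In these 3 genes (18.8% of the 16) every tumour was lower than every preneoplastic library, against 4.5% of all genes.

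Mature oligodendrocyte markers had a median of -1.99, which was -0.11 without K27M-AP 4. Their summed level was 2124 CPM in K27M-AP 4, against 127 to 463 in the other preneoplastic libraries and 76.3 to 179.7 in the tumours. Oligodendrocyte precursor markers summed to 2627, 5292 and 2399 CPM in tumours 1, 2 and 4 and to 4145 to 6771 in the preneoplastic cells, so tumours 1 and 4 lay below that range and tumour 2 inside it. Olig1 stood at 549, 852 and 440 CPM in the tumours and 653 to 1029 before, and Ptprz1, a receptor phosphatase of glial precursors, at 562, 1041 and 294 against 821 to 1299. Of the 19 precursor markers tested, 6 were positive (median -0.52). Only Rlbp1 (5.26%, against 4.5% of all genes) had no overlap, at 4.20 to 13.7 CPM in the tumours against 26.2 to 54.8. Without tumour 2 the median was -1.23 and 10 of the 19 (52.6%) lay lower without overlap, against 12.3% of all genes in that setting, and without K27M-AP 4 the median was -0.06.

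Late gliogenic factors, transcription factors that rise as cortical progenitors turn from making neurons to making glia, were lower by value. Of 10 tested 0 were called, 8 were negative and the median was -0.85 (-0.92 without K27M-AP 4). Nfib stood at 309.5, 232 and 195 CPM in the tumours against 437, 560, 363 and 365. Sox9 stood at 21.6, 50.02 and 48.2 against 77.1 to 94.0, and Zbtb20 (the row ENSMUSG00000022708, as the symbol is on more than 1 row) at 28.9, 16.4 and 19.5 against 36.8 to 134. In these 3 of the 10 (30%) every tumour lay below every preneoplastic library, against 4.5% over all genes. Tcf4, a partner of proneural factors, overlapped at 175, 418 and 196 against 405 to 573. Among early, embryonic genes Trim71, an RNA-binding ubiquitin ligase of early embryos, was the only member of the 12 tested without overlap, at 22.1, 14.8 and 15.2 CPM against 1.86 to 3.90. That is 8.33% of the list, near the 5.41% of all genes with every tumour higher.

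Proliferation genes overlapped in all 29 cases. Top2a stood at 1308, 990.0 and 1585 CPM in the tumours and 1163, 940 and 924.5 in K27M-AP 1 to 3, and Mki67 at 557, 509 and 377 against 816, 699 and 554. In K27M-AP 4 they stood at 31.1 and 19. With that library 24 of 29 log2 differences were positive (median 0.23), and without it 9 were (median -0.14). MAPK feedback genes turned on the same library, with a median of 0.59 that was 0.25 without it.

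Developmental transcription factors split by tumour. Of 62 other homeobox, Pax, T-box and related factors prone to polycomb silencing, 25 passed the filter. Of these, 19 had a positive log2 difference (median 1.78) and 5 (20%) had no overlap with the tumours higher, against 5.41% of all genes. Tbx2, a T-box repressor, stood at 7.42, 4.35 and 7.01 CPM against 0, 0.146, 0.0386 and 0.130. Every tumour was above every preneoplastic library, and the 3 tumours were within a narrow range. Tbx4 stood at 2.55, 0.164 and 2.65 against at most 0.0488, Alx4 at 4.36, 0.572 and 13.9 against at most 0.151, and Isl2 at 5.67, 0.613 and 2.69 against at most 0.389. In Tbx4, Alx4 and Isl2 tumour 2 was the lowest of the 3. Genes that passed the filter only through tumour libraries had to differ, so these counts describe the members that passed and not the list.

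Hox genes, which set position along the body axis, summed to 27.2, 7.91 and 0.139 CPM in tumours 1, 2 and 4 and to at most 0.518 in a preneoplastic library. Of 38 with a row of counts, 6 were tested, all of the Hoxa cluster. Hoxa4 stood at 6.71, 1.27 and 0 CPM in tumours 1, 2 and 4 and at 0 in every preneoplastic library, and Hoxa5 at 4.90, 0.736 and 0 against 0 in every one. Tumour 4 was at or near 0 for all 6, so none separated the groups. En2, a midbrain and hindbrain factor, was at 20.3 CPM in tumour 1 and at 0.123 and 0 in the others, against 0.659 to 1.29 before.

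In the opposite direction, Zic1, a zinc finger factor of dorsal neural tissue, stood at 0.0432, 0 and 0 CPM in the tumours and at 5.48, 44.4, 5.25 and 23.5 before (adjusted p = 0.116, edgeR). Its neighbour Zic4 stood at 0 in all 3 tumours and 0.483 to 8.03 before, and Barhl2 at 0 against 0.390 to 1.20. All 3 were at or near 0 in the tumours, while Zic2 (19.7, 18.4 and 77.3 against 22.9 to 35.4) and the cortical factor Lhx2 (98.7, 57.9 and 64.3 against 40.5 to 139) overlapped. Emx2, a cortical patterning factor, was lower without overlap, at 6.27 to 8.31 CPM against 12.1 to 21.96. Of the 15 forebrain and midbrain factors tested, 4 had no overlap with the tumours lower (26.7%), against 4.5% of all genes. In 1, Gbx2 (6.67%), the tumours were higher without overlap, against 5.41%. Zic1, Zic4 and Barhl2 were too low in the tumours to pass the filter there, so this count describes the members that passed.

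**Figure D4:**
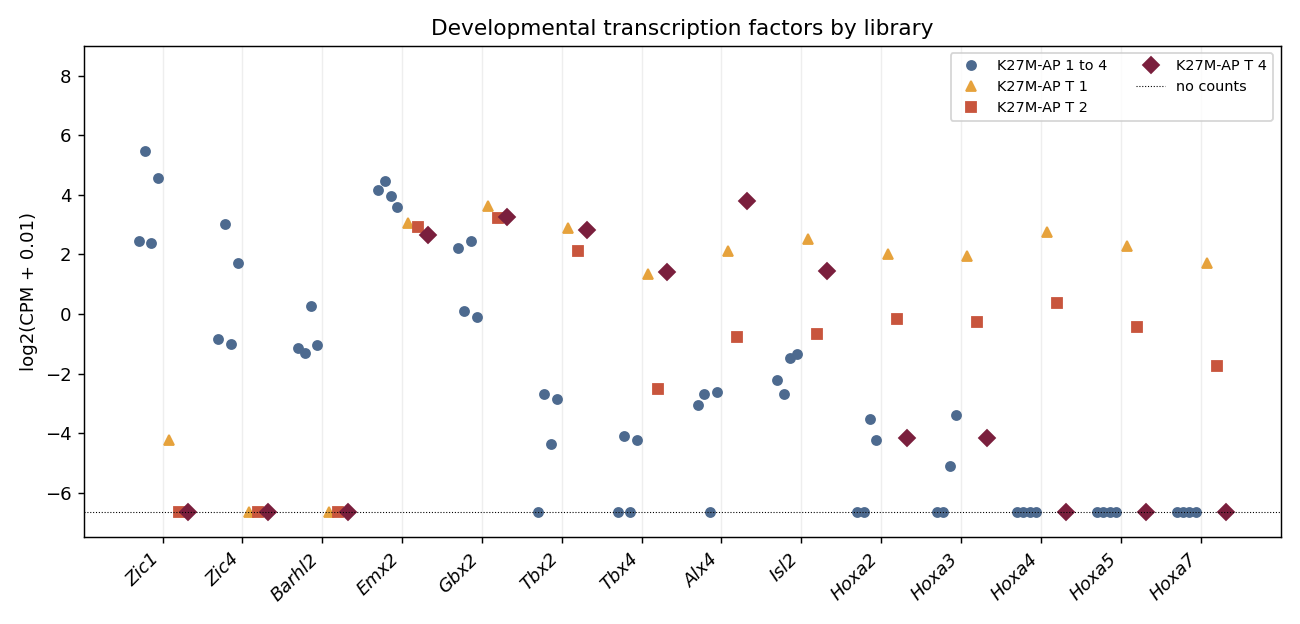
log2(CPM + 0.01) of 14 developmental transcription factors in each library, with circles for K27M-AP 1 to 4, a triangle, square and diamond for tumours 1, 2 and 4, and a dotted line at no counts. Zic1, Zic4 and Barhl2 lie at or near that line in the tumours, Tbx2 lies above all circles in every tumour, and the Hoxa genes are high in tumour 1 and at or near no counts in tumour 4.

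Receptor tyrosine kinases and their ligands, which drive growth in gliomas, had 24 members tested and 0 called. In 5 (20.8%) every tumour was above every preneoplastic library, against 5.41% of all genes. Egfr, the most abundant, stood at 476, 223 and 507 CPM against 282 to 777. Pdgfd, a ligand of the PDGF receptor beta, stood at 3.80, 2.53 and 10.47 against 0.740, 0.878, 0.696 and 1.21 (adjusted p = 0.0857, edgeR). Ddr2, a collagen receptor, stood at 112, 99.3 and 334 against 31.8 to 60.3, and Erbb2 at 39.8, 46.0 and 55.0 against 14.9 to 26.9. Pdgfrb itself was at 0.418 to 1.33 CPM in the tumours. Notch pathway genes were mostly lower by value. Of 16 tested, 0 were called, 4 were positive and the median was -0.77. In 2 (12.5%) every tumour was above every preneoplastic library, against 5.41% of all genes. Among these was Jag2, a ligand presented to neighbouring cells, at 33.1, 11.2 and 30.7 CPM against 1.18, 3.27, 1.91 and 4.10 (log2 difference 3.26, adjusted p = 0.0606, edgeR). The receptors Notch1 and Notch2 overlapped, at 239.5 to 434 and 121 to 169 CPM in the tumours against 259.9 to 989.5 and 102 to 449.

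Extracellular matrix genes had 26 members tested and 19 positive. In 6 of them (23.1%), against 5.41% of all genes, every tumour was above every preneoplastic library. Both chains of the basement membrane collagen were among these, Col4a1 at 89.2, 221 and 184 CPM against 24.5 to 51.9 and Col4a2 at 40.5, 38.7 and 86.3 against 8.20 to 20.6. Col5a1 stood at 103, 156 and 104 against 18.4 to 60.6. The most abundant member, Tnc (tenascin-C), overlapped at 3276, 2791 and 2081 against 1005 to 3211. Of 21 mesenchymal glioma genes tested, 14 were positive and 4 (19%) had no overlap with the tumours higher, against 5.41% of all genes. S100a10 stood at 213, 152 and 347 CPM against 21.6 to 94.6 and its partner Anxa2 at 84.7, 71.6 and 54.1 against 10.8 to 34.7, whereas Cd44, the hyaluronan receptor, overlapped. Fibroblast markers moved with these lists. Of 10 tested, 0 were called, 9 were positive (median 1.56) and 2 (20%) had no overlap, against 5.41% of all genes. They were Col3a1, a fibrillar collagen, at 3.75, 2.62 and 19.4 CPM against 0.0864 to 0.683, and Postn at 0.279 to 0.531 against at most 0.146. Postn was too low in the preneoplastic libraries to pass the filter there, so this count describes the members that passed and not the list. The fibroblast sum was 122, 107.5 and 352 CPM in tumours 1, 2 and 4 and 68.8 to 141.5 in the preneoplastic cells, so only tumour 4 was above that range, and Prrx1, at 245 CPM there, made up most of it. The part of fibroblasts in the matrix and mesenchymal values was not tested.

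The list of H3.3 genes, their chaperones and histone H3K27 demethylases was slightly lower by value. Of 11 tested, 0 were called, 1 was positive and 5 (45.5%) lay lower in every tumour, against 4.5% of all genes. They were Hira (41.0, 32.0 and 24.4 CPM against 44.3 to 67.0), Ubn1, Ubn2 and Cabin1, which form the HIRA complex, and Asf1a (30.8, 34.3 and 32.1 against 41.2 to 49.3), which hands histones to it. The log2 differences of these 5 were small, from -0.68 to -0.30, with adjusted p from 0.244 to 0.463 (edgeR). Polycomb subunits were mixed, with 11 of 25 positive, a median of -0.04 and Ezh2 at 111, 70.9 and 95.8 CPM against 57.9 to 127. In 4 of the 25 (16%) every tumour was above every preneoplastic library, against 5.41% of all genes. One of the 4 was Cbx2, a chromodomain subunit, at 45.96, 34.6 and 51.5 CPM against 21.2 to 31.6.

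**Figure D5:**
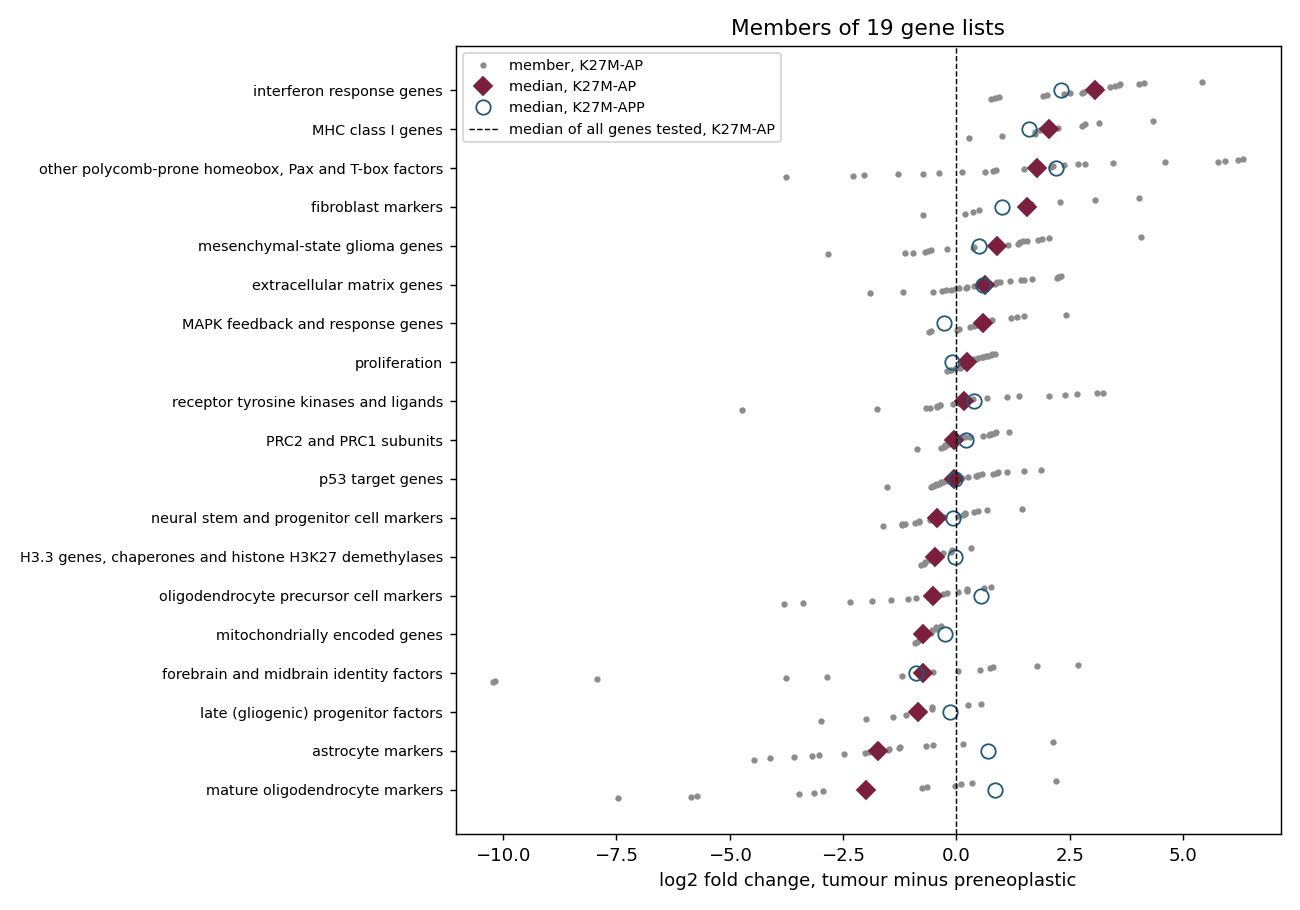
Fitted log2 differences (tumour minus preneoplastic) of the tested members of 19 gene lists in the K27M-AP background (dots), with their median there (filled diamond) and in the K27M-APP background (open circle), and a dashed line at the median of all genes. The interferon and MHC class I medians lie at 3.07 and 2.03, and fitted values beyond about -7 belong to genes with no counts in most tumours, where their size depends on the prior count.

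The same comparison with added Pdgfra, K27M-APP T against K27M-APP, shares no library with this one. For a difference in tumour change between the backgrounds, 0 genes were called by edgeR, 723 had an unadjusted p below 0.05 and DESeq2 called 2. The values lay close for most of the called genes. Samd9l had a log2 difference of 3.45 without and 2.79 with added Pdgfra, Ifi27 3.64 and 3.64, and Lgi1 3.39 and 2.79. Lgals9 (6.56 and 3.64) and Nol3 (2.11 and 1.05) were further apart, by 2.92 and 1.06, and neither difference was called (adjusted p = 0.913 for both, edgeR). The interferon median was 3.07 without and 2.32 with added Pdgfra, with all 20 members positive in both, and the MHC class I median 2.03 and 1.60. Astrocyte markers stood at -1.72 and 0.69, and those of mature oligodendrocytes at -1.99 and 0.85, medians that rest on K27M-AP 4 in the first background. Pdgfd was higher in every tumour without added Pdgfra and lower in every tumour with it (log2 difference 2.67 against -0.78), a difference that was not called (adjusted p = 0.913, edgeR).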

How the data were processed

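RNA was measured by rRNA-depleted paired-end sequencing. The deposited values are raw read counts per gene, which the authors made with Trimmomatic 0.32, STAR 2.3.0e and featureCounts 1.4.4 on mm10, per the submitters' processing notes. The annotation release, the strand setting and the treatment of reads matching several genes are not given in the sources used here. All 7 libraries were read from the later of the deposited count tables, with 39017 gene rows and 22 library columns. The 10 libraries also present in the earlier table had identical counts there, and 10 columns naming samples outside the labels were not used.

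Samples were grouped by title. Genes were filtered with edgeR 4.0.16 (minimum count 10, minimum total 15) and fitted over 13 libraries (K27M-AP, K27M-AP T, K27M-APP and K27M-APP T), so that the groups share 1 estimate of spread, with 9 residual degrees of freedom and a coefficient of variation between replicates of 0.475. The quasi-likelihood test was adjusted by Benjamini-Hochberg over 20373 genes, with a threshold of 0.05. The SE is the log2 difference divided by the square root of F. A group of libraries is said not to overlap when every tumour library is above, or below, every preneoplastic one. Named genes were the called genes, up to 12 genes each way by the rule of a mean of at least 10 CPM, and the members of 45 gene lists, of which 781 genes are in the table and 655 were tested. The members and lists were chosen with earlier results of these data known. The scripts were tested on simulated data. Alternatives (18) used DESeq2 1.42.0, limma 3.58.1 voom, other filters, other sets of libraries and each library left out, in R 4.3.3. Values of a few single genes are not reported here, although list counts, sums and medians include them.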

Additional observations from a re-analysis of the deposited data

Results flagged for a closer look

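In the 4 K27M-AP libraries, 86 values were tested for a library far from the others, as the gap to its nearest neighbour divided by the whole range, against Dixon's 95% critical value. Chance passes about 1 in 20. K27M-AP 4 was the highest for the summed markers of oligodendrocyte precursors (0.909), mature oligodendrocytes (0.832) and endothelial cells and pericytes (0.937), and the lowest for mesenchymal glioma genes (0.841) and for H2-K1 (0.878). K27M-AP 2 was the highest for Tap1 (0.836), Wnt targets (0.918) and imprinted genes (0.937).

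Pdgfd moved in opposite directions in the 2 backgrounds, with every tumour library above the preneoplastic ones without added Pdgfra and every one below with it. The log2 differences were 3.45 apart, with an unadjusted p of 0.000472 and an adjusted p of 0.913 in edgeR.

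The single tumour library K27M-P T 1 entered no comparison. On the scaling of all 23 libraries its interferon response genes summed to 335.1 CPM, above the highest K27M-AP library. Samd9l stood there at 14.4 CPM, Ifi27 at 160.6, Lgi1 at 1.07, Nol3 at 15.3 and Lgals9 at 5.34, each above every K27M-AP library. Its MHC class I genes summed to 235.6 CPM, inside the K27M-AP range of 175.1 to 277.3.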

How the results depend on the processing

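The count of called genes depended on the setting. Against 5 it was 28 with no filter on low counts, 578 by DESeq2, 115 by voom, 150 with all 22 libraries of the later table, 20 with the table as a term and 0 with only the 7 libraries, within either table, or without K27M-AP 4 and tumour 4 together. Leaving out 1 library gave 0 to 54. The 5 genes kept a positive log2 difference in all 18 alternatives. Members of the lists called, 0 in the fit reported, were 4 with no filter, 75 by DESeq2, 21 by voom, 29 with 22 libraries, 2 with the table as a term and 0 to 10 leaving out 1 library. Genes whose tumour change differed between backgrounds were 2 by DESeq2 and 0 otherwise. The cause of these shifts was not tested.

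Deviations of samples with the same replicate number correlated at 0.346, 0.062 and -0.053 for numbers 1, 2 and 4. The value of 0.346 was the highest among pairs of a tumour and a preneoplastic library. With so few libraries, these values cannot show whether a shared number marks a pair. With the replicate block 29 genes were called, 4 of the 5 among them, and Lgals9 was not (adjusted p = 0.0515, edgeR).

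Pdgfra reversed to -0.339 by voom and -0.0548 within the earlier table, and ranged from -0.264 to 0.672 leaving out 1 library. Trp53 reversed to -0.18 by voom, -0.423 within the earlier table and -0.507 without K27M-AP 4 and tumour 4, with -0.485 to 1.03 leaving out 1 library. H3f3a reversed to 0.199 within the later table, with -0.294 to 0.0397 leaving out 1 library. H3f3b reversed to -0.146 within the earlier table and -0.126 without K27M-AP 4 and tumour 4, with -0.167 to 0.537 leaving out 1 library. None of the reversed values was called.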

Other observations

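Among genes outside the lists, chosen after their values were seen, Fut9, a fucosyltransferase that makes the Lewis X sugar of neural progenitors, was the lowest in p among those lower in the tumours. It stood at 54.3, 52.5 and 41.4 CPM in the tumours and at 125, 188, 100 and 128 in the preneoplastic cells, without overlap (log2 difference -1.45, adjusted p = 0.0606, edgeR).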
